A study of Mus musculus with 6 samples.

Results

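The promoters of the proteasome subunit genes were examined in H3K27ac ChIP-seq of O4AID ESCs, taken as the protein-coding genes of GENCODE mouse release 21 whose symbol begins with Psma to Psmg followed by a number. The rule gives 50 genes. Of these, 45 genes (90%) had a transcription start within 1 kb of an H3K27ac peak, at 50 peaks out of the 31131 in the files. For comparison, 10394 of 21951 protein-coding genes (47.4%) had one. All 50 peaks passed the authors' background threshold of 0.5 RPKM in either condition, as did 26457 peaks in all, and none was lost to this filter. The genes were chosen by name and not by their H3K27ac.

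Acetylation of histone H3 at lysine 27 (H3K27ac) marks active promoters and enhancers, and at a promoter it is read here over the peak that lies at the transcription start. O4AID ESCs are mouse embryonic stem cells of strain 129SV with the genotype Oct4-/-, TetOFF Oct4, CAG Oct4AID and CAG Tir1. They were kept with doxycycline, which holds the untagged transgene off, so that OCT4 is made from the CAG-driven copy with the auxin-inducible degron. Both groups carry all of these alleles. Libraries came from 3 uninduced immunoprecipitations (IPs) and from 3 IPs of cells given 500 μM IAA (indole-3-acetic acid, an auxin) for 1.5 h. The comparison asks how far the mark at these promoters differs after OCT4 is removed. The cells are 1 engineered line. IAA-treated cells without the degron on OCT4 were not analysed here, so an effect of IAA cannot be told apart from one of OCT4 loss. The paper reports unchanged H3K27ac after IAA in ESCs with the degron on eGFP, by ChIP-qPCR at the Klf4 and Prdm14 distal enhancers. That control did not cover the proteasome gene promoters. The labels do not say whether the IPs came from separate cultures, and the p-values measure the spread between IPs.

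The proteasome is the barrel-shaped protease that degrades proteins marked with ubiquitin. Its 20S core stacks rings of alpha subunits around rings of beta subunits, of which Psmb5, Psmb6 and Psmb7 carry the catalytic sites, and its 19S cap unfolds substrates with the Psmc ATPases and receives, deubiquitinates and positions them with the Psmd subunits. The genes are expressed in nearly all cells, and the transcription factor NFE2L1 raises them together when proteasome activity is low. The proteasome is also part of the degron itself, since auxin joins the tagged protein to TIR1 and a Cullin 1 ubiquitin ligase and the proteasome then degrades it.

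Sequences before the start were read to show the letters that recur in these promoters. RefSeq promoter windows of 300 bases (250 before and 50 after the start, GRCm38.p6) were found for 42 of the 50 genes, and 39 of these windows, of 37 genes, lay at a tested peak. The letters whose share differed most from other coding promoters were CCGGAAG, those of an ETS-type site, searched on both strands (CTTCCGG on the other). It stood in 16 of the 39 windows (41.0%), against 22.1% of 9117 windows of other coding genes at a tested peak and 8.86% of all 32851 windows. The letters TGACNNNGC (GCNNNGTCA on the other strand), which NFE2L1 and its relatives can bind, stood in 6 windows (15.4%), against 15.1% of the other coding windows at a peak and 12.4% of all windows. Stretches of 120 bases that end at the base before the start are shown for genes with either match and no annotated exon in the stretch. Capitals mark CCGGAAG or TGACNNNGC on either strand, and each stretch is written along its gene. They lie at chr5:123228070-123228189 (+) for Psmd9, chr11:70525237-70525356 (+) for Psmb6, chr11:80428495-80428614 (+) for Psmd11, chr11:101316093-101316212 (+) for Psme3, chr16:20651532-20651651 (+) for Psmd2 and chr16:95990961-95991080 (-) for Psmg1.
Psmd9: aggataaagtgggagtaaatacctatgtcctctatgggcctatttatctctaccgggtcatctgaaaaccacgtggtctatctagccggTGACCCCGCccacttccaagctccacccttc
Psmb6: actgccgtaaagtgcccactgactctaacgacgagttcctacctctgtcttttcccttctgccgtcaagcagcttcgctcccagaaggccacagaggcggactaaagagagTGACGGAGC
Psmd11: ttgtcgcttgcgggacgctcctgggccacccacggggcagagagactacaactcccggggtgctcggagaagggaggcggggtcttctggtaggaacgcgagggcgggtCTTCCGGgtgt
Psme3: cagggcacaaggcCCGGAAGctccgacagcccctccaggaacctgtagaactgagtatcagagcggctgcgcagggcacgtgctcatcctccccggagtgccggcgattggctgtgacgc
Psmd2: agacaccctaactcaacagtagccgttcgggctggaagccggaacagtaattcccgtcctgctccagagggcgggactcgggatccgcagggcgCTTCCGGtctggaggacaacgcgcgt
Psmg1: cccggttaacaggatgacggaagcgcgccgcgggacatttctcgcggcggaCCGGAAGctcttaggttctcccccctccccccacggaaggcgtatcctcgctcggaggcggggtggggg

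For Psme4 and Psmd12, which had the largest falls of their groups, and for the catalytic subunit gene Psmb5, only the 30 bases around the match are shown. They lie at chr11:30771710-30771739 (+), chr11:107479498-107479527 (+) and chr14:54618024-54618053 (-).
Psme4: cgtggccccgccCCGGAAGtgacttgaggc
Psmd12: gatgagcgggcgaCTTCCGGtgcgagtgac
Psmb5: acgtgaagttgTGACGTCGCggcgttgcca

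Other letters, searched on both strands, differed less in share from other promoters at a peak. CCAAT stood in 30.8% of the 39 windows against 39.3% of the other coding windows at a peak, and the GC box GGGCGG in 59.0% against 68.8%. CGCATGCG stood in 5.13% against 5.03%, CACGTG in 7.69% against 11%, TATAAA in 7.69% against 5.43%, and TGACGTCA in 0 of 39 against 3.69%. Among all windows these shares were 37.4% for CCAAT, 35.7% for GGGCGG, 1.87% for CGCATGCG, 7.15% for CACGTG, 13.6% for TATAAA and 1.79% for TGACGTCA. The octamer ATGCAAAT, the letters OCT4 recognizes, stood in 1 of the 39 windows, that of Psmd13, against 1.14% of other coding windows at a peak and 1.74% of all windows. A match is a description of the letters and not of binding.

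Most of these peaks sat over the start and ran into the gene. A transcription start lay inside 43 of the 50 peaks, 46 peaks overlapped an exon of their gene, and 43 overlapped a UTR. Of the bases in the peaks, 35.4% were intronic, 35.2% exonic and 29.3% outside the gene. Measured from the RefSeq start, peak centres lay at a median of 180.5 bases into the gene over 43 pairs of a start and a peak, and 32 of these centres were downstream. In 13 peaks (26%) the start of another coding gene also lay within 1 kb, and the mark there cannot be assigned to 1 gene. Among these starts were those of Tbp beside Psmb1, Mrpl32 beside Psma2, Dnajc2 beside Psmc2 and Ss18l1 beside Psma7. Others were those of Ftsj3 beside Psmc5, Atg4a beside Psmd10, Cep76 beside Psmg2, Sirt3 beside Psmd13 and Rnf31 beside Psme2.

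**Figure D1:**
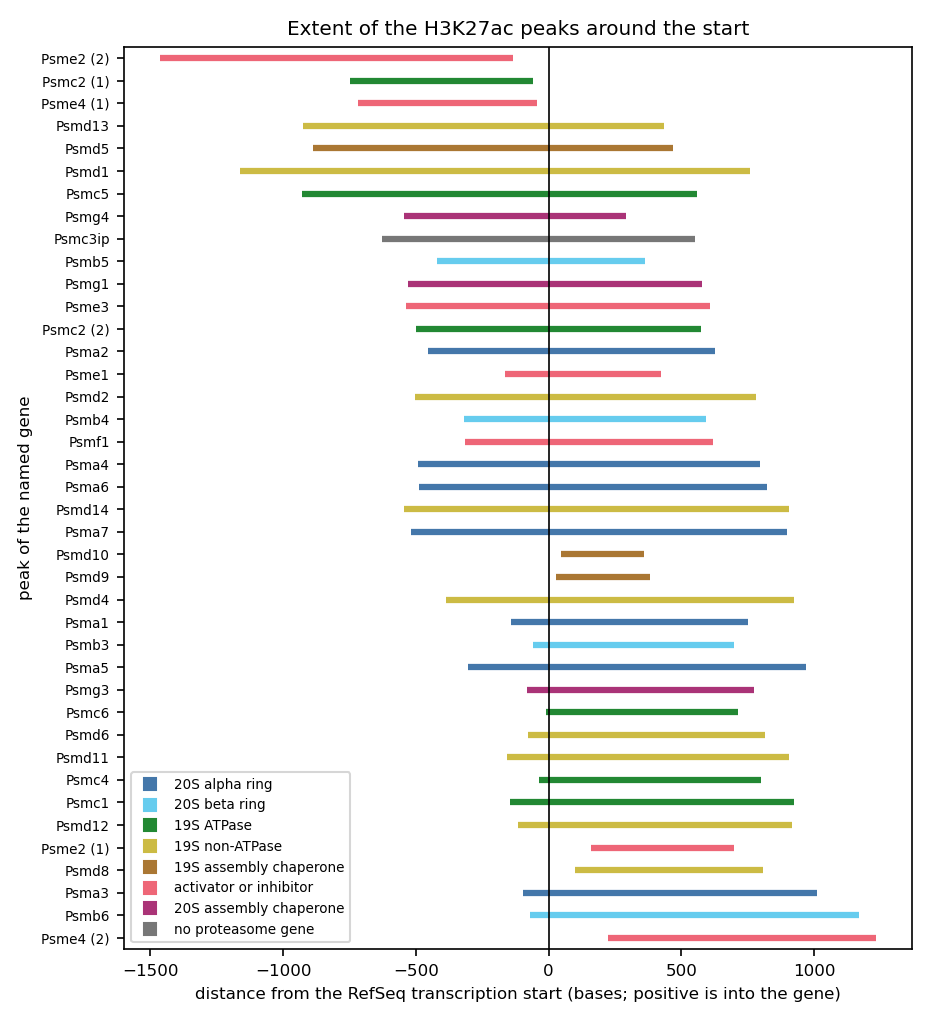
Extent of 40 H3K27ac peaks (bars, coloured by role of the gene) against distance from the RefSeq transcription start in bases, positive into the gene; (1) and (2) number the peaks of 1 gene by coordinate. Most bars span 0, and the peaks of Psme4 and of Psme2 lie on separate sides of a start. The bars of Psmc2 overlap because each is drawn from a different RefSeq start of the gene, although the peaks are 1033 bp apart.

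The peaks are short of reads compared with a whole gene. Library sizes were 31634480 to 39547452 reads, and a proteasome gene peak held 6 to 479 reads per library with a median of 119.5, for which counting error alone is 9.15% (40.8% at the smallest). Reads inside peaks made up 6.63% to 7.12% of the uninduced libraries and 4.05% to 5.15% of the IAA libraries. RPKM divides by all reads, so this share enters every value. Whether the share differed through the yield of the IPs or through the mark itself was not tested. The identity of the cells was read from marker promoters. All 8 ESC markers had a promoter peak, with summed levels of 98.0 to 104 RPKM uninduced and 47.7 to 63.9 RPKM after IAA, whereas 0 of 5 trophoblast and 0 of 5 fibroblast markers and 1 of 4 primitive endoderm markers (Gata6, 1.25 to 1.68 RPKM uninduced and 0.912 to 1.20 RPKM after IAA) had one. Peaks were called in uninduced cells, so a gene that gained a peak after IAA would not be listed.

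H3K27ac in RPKM fell at most proteasome gene promoters after addition of IAA, by about as much as at promoters in general. By limma on log2(RPKM + 0.1), with adjustment over all 26457 tested peaks, 42 of the 50 peaks (84%) were lower and 0 were higher, against a background of 68.2% lower and 0.0605% higher among all tested peaks and 71.1% lower among 11773 peaks at other coding promoters. All 50 changes were negative, from -1.12 to -0.08. The median level over the 50 peaks was 3.96 RPKM uninduced and 2.74 RPKM after IAA, with a median log2 change of -0.50 (quartiles -0.59 and -0.43). At other coding promoters the levels were 2.89 and 1.96 RPKM and the median change -0.53, and over all tested peaks they were 2.44 and 1.63 RPKM and -0.55. At 41 peaks (82%) the highest IAA library was under the lowest uninduced one, against 71.2% of all tested peaks. The count of lower peaks depended on the uninduced libraries. It was 18 without uninduced replicate 1 and 22 without uninduced replicate 2, while the background fell to 39.2% and 46.5%.

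**Figure D2:**
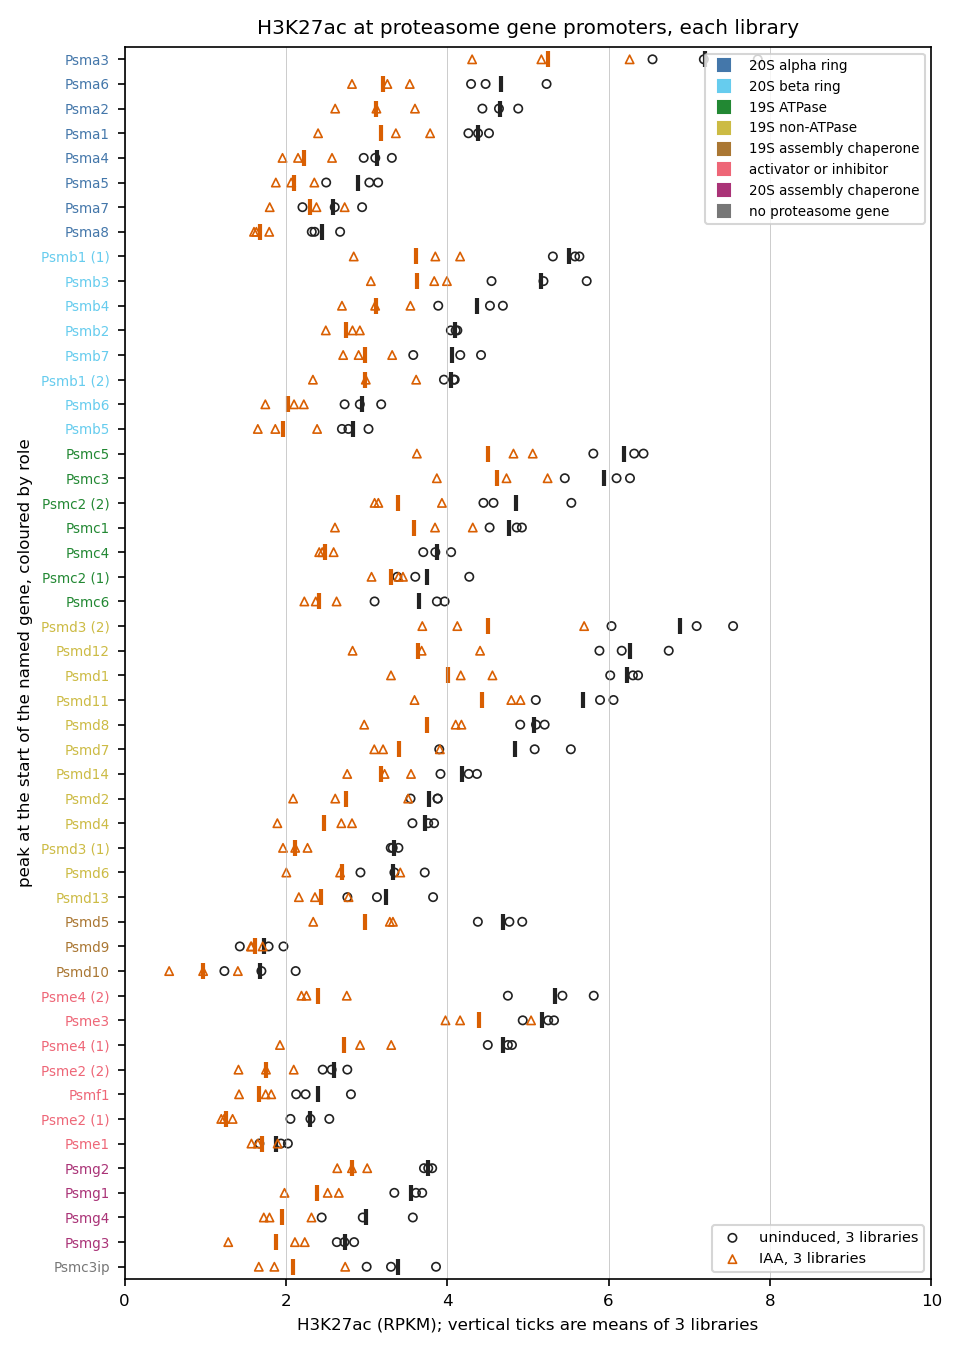
H3K27ac in RPKM (x axis, linear) at each of the 50 peaks (rows, coloured by role), with circles for the 3 uninduced libraries, triangles for the 3 IAA libraries and ticks for their means; (1) and (2) number the peaks of 1 gene by coordinate. The 41 peaks without overlap show triangles to the left of every circle, and those of Psmd9, Psme1, Psma7 and Psmc2 (1) show them overlapping the circles.

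The proteasome gene promoters carried more H3K27ac than the typical peak before and after IAA. The median of log2(RPKM + 0.1) over the 50 peaks was 2.06, 2.02 and 1.97 in uninduced replicates 1 to 3 and 1.77, 1.51 and 1.30 in IAA replicates 1 to 3. No IAA library reached the lowest uninduced one. Over all tested peaks the same medians were 1.39, 1.37 and 1.30 before and 0.95, 0.83 and 0.62 after IAA, in the same order within each group. IAA replicate 1 was the highest of the IAA libraries at 42 of the 50 peaks, and IAA replicate 3 the lowest at 38.

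Once each library was centred on its median tested peak, little was left that set these promoters apart. The median change over the 50 peaks became 0.05, with 20 peaks below 0 and 30 above. Then 1 peak was lower (at Psme4, described under the activators) and 0 were higher, against 1.97% lower and 0.544% higher among all tested peaks. The falls described for the other genes are thus falls in RPKM that did not pass the test relative to the median peak.

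**Figure D3:**
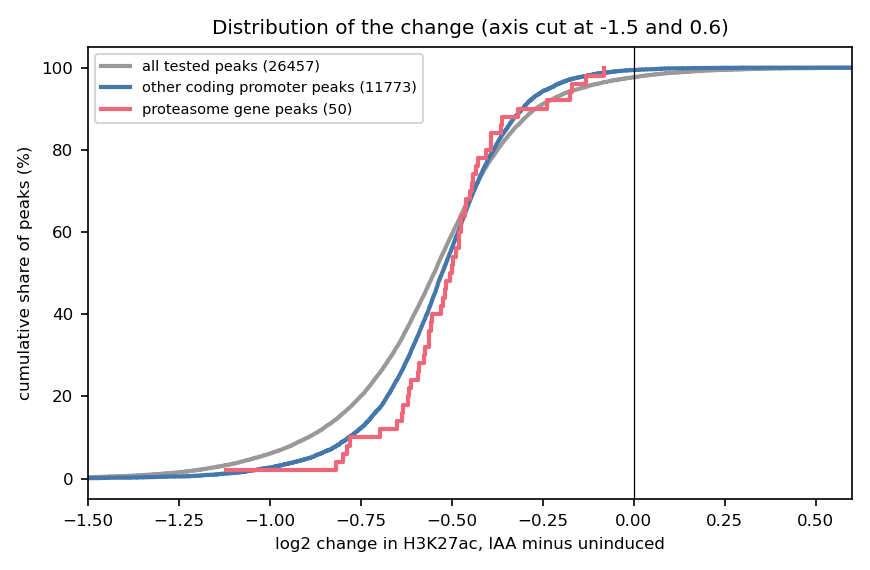
Cumulative share of peaks in percent against the log2 change in H3K27ac (IAA minus uninduced) for 26457 tested peaks, 11773 peaks at other coding promoters and the 50 proteasome gene peaks, with the x axis cut at -1.5 and 0.6. The curve of the proteasome gene peaks stays to the left of 0 and crosses the others near a change of -0.5, with a narrower lower tail.

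The alpha ring genes encode the outer rings of the 20S core, whose N-termini gate the entry to the barrel. All 8 of them had 1 peak each, and 7 of 8 were lower, with a median change of -0.48. This count was 1 without uninduced replicate 1 and 3 without uninduced replicate 2. For this group and those below, the share lower over all tested peaks was 68.2%, and 39.2% and 46.5% without uninduced replicates 1 and 2. Psma3 had the highest level of all 50 peaks, at 7.85, 7.18 and 6.54 RPKM in uninduced replicates 1 to 3 and 6.26, 5.17 and 4.31 RPKM in IAA replicates 1 to 3. The groups did not overlap, and the log2 change was -0.46 ± 0.16 (SE, adjusted p = 0.0191). Psma2 fell most in this group, from 4.88, 4.64 and 4.44 RPKM to 3.60, 3.12 and 2.61 RPKM, a log2 change of -0.58 ± 0.16 (SE, adjusted p = 0.00699). The exception was Psma7, whose peak is shared with Ss18l1, at 2.61, 2.94 and 2.21 RPKM uninduced and 2.38, 1.80 and 2.73 RPKM after IAA. These values overlap, and the change of -0.17 (95% interval -0.56 to 0.22) did not pass the test (adjusted p = 0.398). The call for Psma3 was lost without uninduced replicate 1 (adjusted p = 0.0954) and without uninduced replicate 2 (0.0606). Psma8, the testis form of Psma7, also had a peak, at 2.67, 2.32 and 2.36 RPKM uninduced and 1.79, 1.63 and 1.60 RPKM after IAA. Its groups did not overlap, with 68.5% of the uninduced mean left.

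The constitutive beta ring genes moved within a narrow range. All 8 peaks of Psmb1 to Psmb7 were lower and without overlap, with a median change of -0.51 and a range of -0.61 to -0.43. At other coding promoters 71.1% of peaks were lower and 72.3% were without overlap. Without either uninduced replicate 1 or 2, 3 of the 8 were lower. Relative to the median tested peak, 0 of the 8 passed the test. The catalytic subunit genes were alike in their falls. Psmb5, the chymotrypsin-like subunit and the target of bortezomib, was at 3.02, 2.78 and 2.69 RPKM uninduced and 2.39, 1.87 and 1.65 RPKM after IAA. Psmb6, the caspase-like subunit, was at 3.18, 2.73 and 2.92 RPKM and then 2.22, 2.10 and 1.75 RPKM. Psmb7, the trypsin-like subunit, was at 4.42, 4.16 and 3.58 RPKM and then 3.32, 2.90 and 2.71 RPKM. Their log2 changes were -0.52 ± 0.18, -0.52 ± 0.17 and -0.43 ± 0.16 (SE), with adjusted p of 0.0191, 0.0149 and 0.0251. Psmb5 and Psmb6 were named after their values were seen. Without uninduced replicate 1 these calls were lost (adjusted p = 0.0826, 0.0772 and 0.122), and those of Psmb5 and Psmb7 also without uninduced replicate 2 (0.0514 and 0.0889) and that of Psmb7 without IAA replicate 2 (0.0624). The first peak of Psmb1, a structural subunit, was the highest and fell most in this group, from 5.64, 5.31 and 5.58 RPKM to 4.16, 3.85 and 2.84 RPKM (log2 change -0.61 ± 0.16, SE, adjusted p = 0.00565).

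The inducible and thymic beta genes had no peak at the start. Psmb8, Psmb9 and Psmb10 replace the catalytic subunits in the immunoproteasome, which interferon induces, and Psmb11 does so in the thymus. The nearest peak was 65404 bp from a start of Psmb8, 60850 bp from Psmb9, 26910 bp from Psmb10 and 3017 bp from Psmb11. With Psme2b, a copy of Psme2 whose nearest peak was 5024 bp away, these are the 5 of 50 genes without a peak. Their H3K27ac was therefore not measured in these files, and a low level under the peak caller's limit was not told apart from none.

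The ATPase genes of the 19S cap encode the ring that unfolds the substrate and opens the gate. Of their 7 peaks, 6 were lower, with a median change of -0.46, and 2 and 3 were lower without uninduced replicates 1 and 2. Psmc5 was the highest, at 6.32, 6.43 and 5.81 RPKM uninduced and 5.06, 4.82 and 3.62 RPKM after IAA, without overlap (log2 change -0.46 ± 0.16, SE, adjusted p = 0.0180). Psmc4 fell most, from 4.05, 3.85 and 3.70 RPKM to 2.59, 2.45 and 2.41 RPKM (log2 change -0.62 ± 0.15, SE, adjusted p = 0.00404). Psmc1, 1 of 2 peaks in the set that the authors mark as within 1 kb of an OCT4 site, was at 4.93, 4.86 and 4.53 RPKM uninduced and 4.32, 3.85 and 2.61 RPKM after IAA. Its groups did not overlap, and its change of -0.43 ± 0.18 (SE, adjusted p = 0.0383) was smaller than the median over all tested peaks. The call for Psmc1 was lost without any 1 of the uninduced replicates 1, 2 and 3 (adjusted p = 0.109, 0.0968 and 0.0588) or IAA replicate 3 (0.123), without the RPKM threshold (0.0744), and with limma run without trend and robust settings (0.0696). That for Psmc5 was lost without uninduced replicate 1 (0.0688) or 2 (0.0718).

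Psmc2 had 2 peaks 1033 bp apart, both also near a start of Dnajc2. The first was at 3.38, 4.27 and 3.60 RPKM uninduced and 3.45, 3.06 and 3.40 RPKM after IAA, with overlap and a change of -0.17 (95% interval -0.50 to 0.16) that did not pass the test (adjusted p = 0.309). The second was at 5.54, 4.45 and 4.57 RPKM and then 3.93, 3.10 and 3.15 RPKM, without overlap (log2 change -0.51 ± 0.16, SE, adjusted p = 0.0131), and its call was lost without uninduced replicate 1 (adjusted p = 0.0897). The log2 ratio of the second to the first peak was 0.36 ± 0.32 uninduced and 0.03 ± 0.15 after IAA (SD, n = 3), which the exact two-sided permutation test did not separate (p = 0.2, with 0.1 the smallest possible). Over the 5 genes with 2 peaks the adjusted p of this ratio was 0.5 to 1.

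The other subunit genes of the 19S cap encode the scaffold, the ubiquitin receptors and the deubiquitinase Psmd14. Of their 12 peaks 9 were lower, with a median change of -0.48, and 5 were without either uninduced replicate 1 or 2. The highest level was at the second peak of Psmd3, a scaffold subunit of the lid, at 7.09, 7.54 and 6.04 RPKM uninduced and 5.70, 4.12 and 3.69 RPKM after IAA, without overlap (log2 change -0.62 ± 0.17, SE, adjusted p = 0.00635). Psmd12, also of the lid, fell most, from 5.89, 6.75 and 6.16 RPKM to 4.41, 3.68 and 2.83 RPKM (log2 change -0.79 ± 0.17, SE, adjusted p = 0.00154). It kept 58.1% of the uninduced mean.

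The 3 lid subunit genes Psmd6, Psmd11 and Psmd13 did not pass the test. Psmd11 was at 5.89, 6.06 and 5.10 RPKM uninduced and 4.79, 3.59 and 4.91 RPKM after IAA, without overlap (-0.36, 95% interval -0.70 to -0.03, adjusted p = 0.0522). Psmd13, whose peak is shared with Sirt3, was at 3.82, 2.76 and 3.13 RPKM uninduced and 2.78, 2.36 and 2.16 RPKM after IAA, where 1 IAA value lay above the lowest uninduced one (-0.39, 95% interval -0.76 to -0.03, adjusted p = 0.0510). Psmd6 was at 3.34, 3.72 and 2.92 RPKM uninduced and 3.42, 2.67 and 2.01 RPKM after IAA, with overlap (-0.32, 95% interval -0.71 to 0.07, adjusted p = 0.126). Without IAA replicate 1 all 3 were called lower (adjusted p = 0.0206 for Psmd6, 0.0267 for Psmd11 and 0.0217 for Psmd13), and Psmd11 also without IAA replicate 3 (0.0229). Psmd11 and Psmd13 were also called lower with a pseudocount of 0.5 RPKM (0.0490 and 0.0474) and after adjustment for GC content (0.0139 and 0.0354), and Psmd13 with a threshold of 1 RPKM (0.0491).

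**Figure D4:**
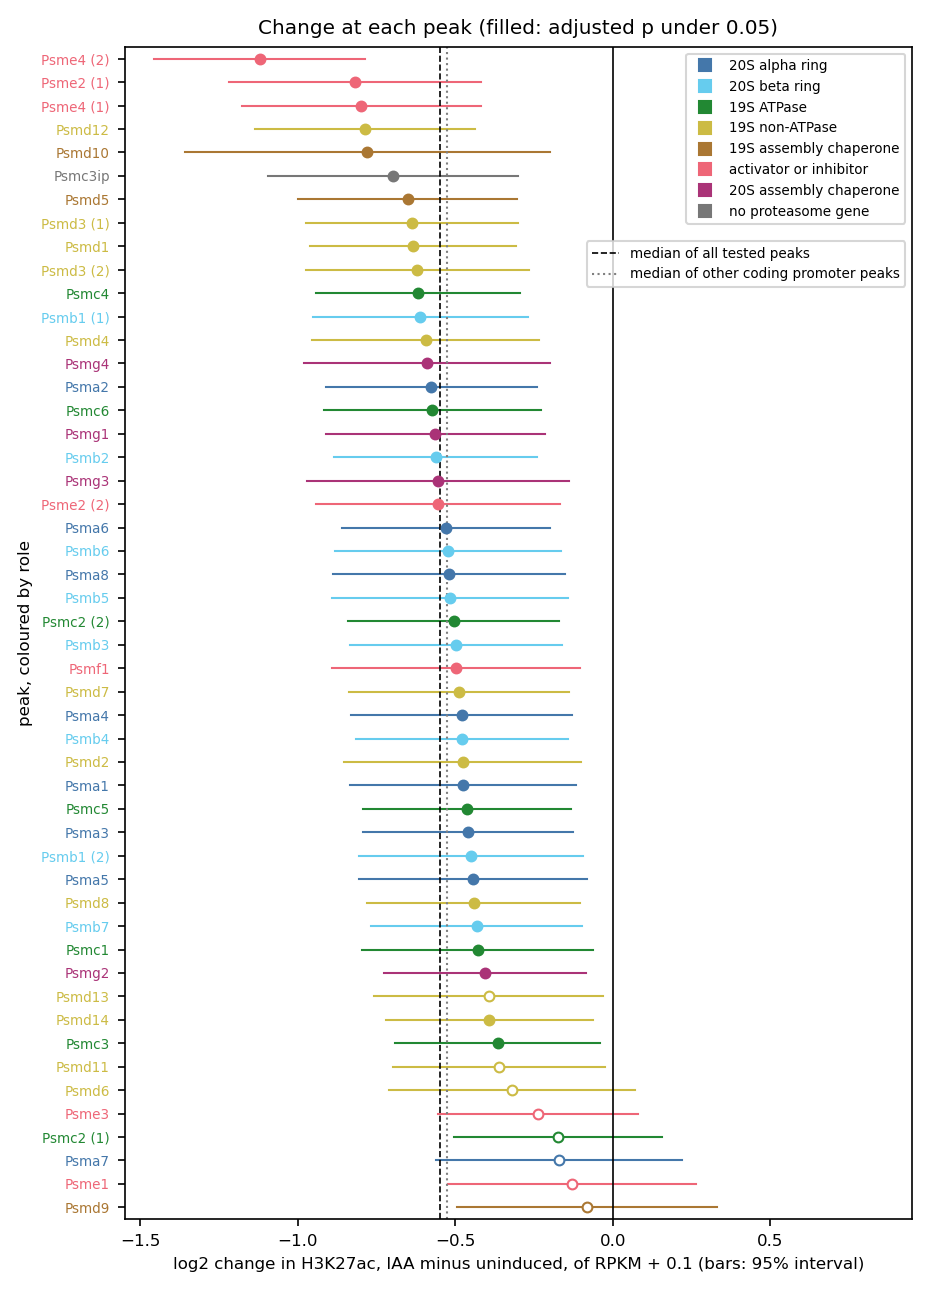
Log2 change in H3K27ac (x axis, IAA minus uninduced, of RPKM + 0.1) at each of the 50 peaks, sorted by change and coloured by role, with bars for the 95% interval and filled points for adjusted p under 0.05; the dashed and dotted lines are the medians of all tested peaks (-0.55) and of other coding promoter peaks (-0.53). Most intervals hold both lines, and only that of the second Psme4 peak lies wholly to their left. Those of the first Psmc2 peak, Psmd9 and Psme1 lie wholly to their right.

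The genes for assembly chaperones help to build the particle and are not part of the finished one. For the 19S chaperones 2 of 3 peaks were lower, and 1 without uninduced replicate 1, uninduced replicate 2, IAA replicate 3 or the RPKM threshold. Psmd5 fell from 4.77, 4.38 and 4.93 RPKM to 3.33, 3.29 and 2.34 RPKM, without overlap (log2 change -0.65 ± 0.17, SE, adjusted p = 0.00456). Psmd10, at a low 1.70, 2.12 and 1.24 RPKM uninduced and 1.40, 0.974 and 0.553 RPKM after IAA, overlapped by 1 value (log2 change -0.78 ± 0.28, SE, adjusted p = 0.0213). Its peak holds the fewest reads of the set, down to 6, and the call was lost without uninduced replicate 1 (adjusted p = 0.0582), uninduced replicate 2 (0.0908) or IAA replicate 3 (0.123), or without the RPKM threshold (0.0629). Psmd9 changed least of all 50 peaks, at 1.79, 1.43 and 1.97 RPKM uninduced and 1.57, 1.57 and 1.71 RPKM after IAA, with the IAA values inside the uninduced range (-0.08, 95% interval -0.49 to 0.33, adjusted p = 0.707). Without uninduced replicate 3 its change was 0.01.

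The 20S chaperone genes, Psmg1 to Psmg4, were lower at 4 of 4 peaks, with a median change of -0.56, and at 1 without uninduced replicate 1. Psmg2 had the highest level and the smallest fall, from 3.81, 3.71 and 3.76 RPKM to 2.82, 2.64 and 3.01 RPKM (log2 change -0.41 ± 0.15, SE, adjusted p = 0.0281). Psmg4 fell most, from 3.57, 2.95 and 2.44 RPKM to 2.32, 1.73 and 1.80 RPKM (log2 change -0.59 ± 0.19, SE, adjusted p = 0.0127). Neither overlapped between groups. The call for Psmg4 was lost without uninduced replicate 1 (adjusted p = 0.0902), and that for Psmg2 without any 1 of uninduced replicates 1, 2 and 3 (0.0987, 0.0830 and 0.0769) or IAA replicate 2 (0.0883).

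The activator genes held the widest range of the set. Psme1 and Psme2 encode the subunits of PA28αβ, which interferon induces, Psme3 the nuclear PA28γ, Psme4 the nuclear PA200, and Psmf1 the inhibitor PI31. Of their 7 peaks 5 were lower, with a median change of -0.55 and a range of -1.12 to -0.13, and 3 were lower without uninduced replicate 2.

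Psme4 had 2 peaks 268 bp apart, at chr11:30771056-30771730 and chr11:30771998-30773009 as the files give them. Counted from the RefSeq start, the first runs from base -719 to base -45, and the second, marked by the authors as within 1 kb of an OCT4 site, from base 223 to base 1234 into the gene, where 493 of its 1011 bases are coding sequence and 518 intron. The second peak was at 5.43, 5.82 and 4.75 RPKM uninduced and 2.75, 2.19 and 2.25 RPKM after IAA. The groups lay far apart, with 45.0% of the uninduced mean left. Its log2 change of -1.12 ± 0.16 (SE, adjusted p = 8.43e-05) was the largest of the 50 peaks, and it remained with the libraries centred on the median peak (-0.57, adjusted p = 0.0212). The first peak fell from 4.80, 4.50 and 4.75 RPKM to 3.31, 2.92 and 1.93 RPKM (log2 change -0.80 ± 0.18, SE, adjusted p = 0.00235), to 58.0% of the uninduced mean. The log2 ratio of the second to the first was 0.18 ± 0.18 uninduced and -0.15 ± 0.32 after IAA (SD, n = 3), which the exact two-sided permutation test did not separate (p = 0.3, adjusted p = 0.5 over 5 genes). The octamer ATGCAAAT was not found in a window of 3000 bases around either Psme4 peak or that of Psmc1, and stood at 12% of the 50 peaks, 12.2% of other coding promoter peaks and 15.0% of all tested peaks.

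Of the PA28 genes, Psme2 passed the test at both peaks, and Psme1 and Psme3 did not. The changes were not tested against each other. The first peak of Psme2, downstream of its start and shared with Rnf31, fell from 2.54, 2.06 and 2.304 RPKM to 1.20, 1.34 and 1.23 RPKM, to 54.7% of the uninduced mean (log2 change -0.82 ± 0.19, SE, adjusted p = 0.00274). The second Psme2 peak is also shared with Rnf31 and lies wholly outside Psme2. It fell from 2.46, 2.76 and 2.57 RPKM to 2.10, 1.75 and 1.41 RPKM (log2 change -0.55 ± 0.19, SE, adjusted p = 0.0163), a call lost without uninduced replicate 2 (adjusted p = 0.0639). These values were named after they were seen. Psme1, the partner subunit, was at 2.02, 1.94 and 1.67 RPKM uninduced and 1.90, 1.65 and 1.57 RPKM after IAA, with overlap (-0.13, 95% interval -0.52 to 0.26, adjusted p = 0.521). Psme3 was at 5.25, 5.32 and 4.94 RPKM uninduced and 5.04, 4.16 and 3.98 RPKM after IAA, where only IAA replicate 1 reached the uninduced range (-0.24, 95% interval -0.56 to 0.08, adjusted p = 0.158). Without that library Psme3 was called lower (adjusted p = 0.0415).

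Psmc3ip matches the naming rule but encodes a meiotic recombination factor and no part of the proteasome. It fell from 3.30, 3.86 and 3.00 RPKM to 2.73, 1.86 and 1.66 RPKM, without overlap (log2 change -0.70 ± 0.19, SE, adjusted p = 0.00627). Without it the median change over the other 49 peaks was -0.50, and 41 of them were lower.

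Nearness to an OCT4 site was rare in this set. Of the 50 peaks 2 (4%) carried the authors' mark, against 8.05% of other coding promoter peaks and 17.6% of all tested peaks. At other coding promoters, the 948 marked peaks had a median change of -0.64 and the 10825 unmarked ones -0.52, so the proteasome gene median of -0.50 stood beside the unmarked promoters. The marked Psme4 and Psmc1 peaks, at -1.12 and -0.43, lay on opposite sides of the marked promoters' median.

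The size of the fall went with base composition. Over the 50 peaks, GC content and log2 change had r = 0.60 and rho = 0.55, as a description over peaks that share the same 6 libraries, against r = 0.14 over other coding promoter peaks and 0.15 over all tested peaks. The 25 peaks of lower GC content (45.6% to 56.1%) had a median change of -0.57 and the 25 of higher GC content (56.2% to 68.2%) one of -0.47. Of the 8 peaks that were not called lower, 7 had a GC content over 61%, with 68.2% at Psma7, 66.9% at the first Psmc2 peak, 66.4% at Psmd11, 64.7% at Psme1, 62.6% at Psme3, 61.9% at Psmd6 and 61.6% at Psmd9, and the remaining 1, at Psmd13, had 55.7%. Over 61% there were also 3 peaks called lower, the second Psmb1 peak (63.4%, log2 change -0.45), that of Psmd7 (62.1%, -0.49) and the second Psmd3 peak (61.5%, -0.62). The cut of 61% was set after these values were seen. The share called lower over this cut was not counted for other coding promoter peaks or all tested peaks. The set as a whole did not have a high GC content, with a median of 56.2% against 57.7% at other coding promoters and 52.9% over all tested peaks. Its ratio of observed to expected CpG was 0.72, against 0.67 and 0.36.

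Libraries also differed from each other with GC content. Taken 1 at a time against the uninduced mean, the IAA libraries gave r = 0.60, 0.33 and 0.53 over the 50 peaks. Each uninduced library against the mean of the other uninduced ones gave r = -0.22, 0.38 and -0.25, so GC content moved with single libraries of 1 group as well. Over other coding promoter peaks the IAA libraries gave r = 0.25, -0.11 and 0.16, and the uninduced libraries -0.03, 0.33 and -0.30. After a smooth trend with GC content was taken out of each library over all tested peaks, an alternative added after the data were seen, 44 of the 50 peaks were lower and the median change was -0.52. Over all tested peaks 69.2% were then lower, with a median change of -0.55. Whether a relation with GC content remained after this adjustment was not tested. The part of library preparation in this relation was not tested.

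**Figure D5:**
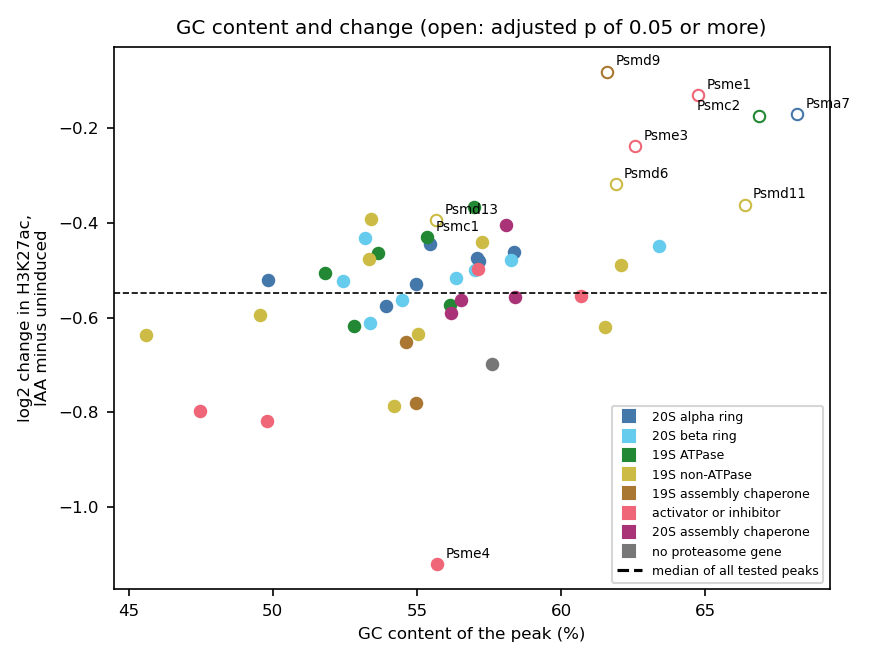
Log2 change in H3K27ac (IAA minus uninduced) against the GC content of the peak in percent for the 50 peaks, coloured by role, with open points for adjusted p of 0.05 or more and names at those and at the peaks near an OCT4 site. Open points other than that of Psmd13 (55.7%) lie at the upper right, at GC contents from 61.6% to 68.2%, and the second Psme4 peak lies alone at the bottom.

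Level, length and promoter letters went less with the change. The uninduced level had r = -0.20 and rho = -0.07 with the log2 change over the 50 peaks, and peak length r = 0.004. For the counts that follow, 68.2% of all tested peaks and 71.1% of other coding promoter peaks were lower. Neither background was split by promoter letters. The 17 peaks at a window with CCGGAAG, that of Psmd2 or Psmd11 among them, had a median change of -0.53 with 12 lower, and the 23 at a window without it had -0.50 with 20 lower. For TGACNNNGC the 7 peaks with it had -0.57 with 6 lower and the 33 without it -0.48 with 26 lower. The printed stretches show this spread. Psmd9 and Psmb6 both hold TGACNNNGC close to the start, and their changes were -0.08 and -0.52.

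Other genes of the pathway were taken as a list of 28 genes that regulate, assist or supply the proteasome or form the ligase the degron uses. They had 35 tested promoter peaks at 25 of them (Ddi2 and Ngly1 had no peak, and Paaf1 was not matched in the annotation). Of these peaks 32 were lower and 0 higher, with a median change of -0.53, against 68.2% lower and -0.55 over all tested peaks and 71.1% and -0.53 at other coding promoters, and 3 were not called, at Sem1, Ubqln1 and the second Ecpas peak. Relative to the median peak 0 of the 35 passed the test. The count of lower peaks was 14 without uninduced replicate 1 and 16 without uninduced replicate 2, where 39.2% and 46.5% of all tested peaks were lower. Without IAA replicate 1, Sem1 and Ubqln1 were called lower (adjusted p = 0.0254 and 0.0139). The components of the ligase, Skp1a, Cul1 and Rbx1, were lower at each of their 4 peaks.

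The largest fall of this list was at 1 of 3 peaks of Nfe2l1, the regulator of proteasome genes. This peak is marked as near an OCT4 site, and its log2 change was -0.87 ± 0.16 (SE, adjusted p = 0.000456). Another Nfe2l1 peak with the same mark changed by -0.53 ± 0.16 (SE, adjusted p = 0.0105). The remaining Nfe2l1 peak, without the mark, had the highest uninduced level of the 3 (5.76 RPKM). It fell least, by -0.42 ± 0.16 (SE, adjusted p = 0.0241).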

How the data were processed

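The 6 H3K27ac ChIP-seq libraries of O4AID ESCs, 3 uninduced and 3 treated with IAA, were grouped by their labels. The authors aligned reads to GRCm38 with Bowtie2 2.3.4.3 (the version is from the submitters' processing notes), removed duplicates, called peaks with MACS2 on the pooled uninduced reads and deposited RPKM values made with DiffBind (MACS2 and DiffBind versions are not given in the sources used here). Each deposited pooled value is the mean over 3 libraries and served only for the threshold and the median levels in RPKM over sets of peaks. The OCT4 mark came with the pooled values, and 0 per-sample columns were left unused. All values are whole multiples of 1 read (tolerance 0.01 reads), from which library sizes were derived.

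Peaks at or above 0.5 RPKM in either pooled column were transformed to log2(RPKM + 0.1) and fitted by limma 3.58.1 (R 4.3.3, trend and robust settings) in a two-sided test, with Benjamini-Hochberg adjustment over all 26457 tested peaks and a threshold of 0.05. Fold changes on this scale understate the change of low peaks. Errors printed after ± with SE are from limma. Peaks were joined to GENCODE starts within 1 kb with Python 3.11.15, sequence was read with pysam 0.24.0, and ratios between peaks were compared with scipy 1.17.1. The fit was tested on simulated data. Peak coordinates are as the files give them.

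In each role group the peaks with the highest uninduced level, the largest fall and the smallest fall are named, as are all peaks near an OCT4 site, not called, or called after centring. Genes named by role, with both peaks of Psme4, Psme2 and Psmc2, and the partner genes that were not called or fell most or least were added after their values were seen. The genes and lists were chosen with earlier results of these data known, and 2 further genes of the partner list are not reported here and enter none of its counts. Alternatives covered the pseudocount, threshold, scaling, limma settings, start distance, replicate block and leaving out each library.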

Additional observations from a re-analysis of the deposited data

How the results depend on the processing

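The direction of the change depended on the scaling, since the median tested peak itself fell by 0.55. With libraries centred on the median tested peak, with quantile normalization, and with libraries centred on the median coding promoter peak (added after the data were seen), 1, 1 and 1 of the 50 peaks were lower, 0, 0 and 0 of the partner list, and the median change over the 50 peaks was 0.052, 0.057 and 0.032. In all, 30, 36 and 30 of the 50 changes turned above 0, and in that order they included Psmc1 0.12, 0.15 and 0.10, the first Psmc2 peak 0.38, 0.41 and 0.36, the second 0.048, 0.071 and 0.028, Psmc5 0.090, 0.087 and 0.070, Psmd9 0.47, 0.49 and 0.45, Psmd11 0.19, 0.19 and 0.17, Psmd13 0.16, 0.19 and 0.14, Psmd6 0.23, 0.26 and 0.22, Psma3 0.093, 0.053 and 0.073, Psma7 0.38, 0.39 and 0.36, and Psmg2 0.15, 0.18 and 0.13. In the same order, Psmb5 became 0.037, 0.052 and 0.017, Psmb6 0.030, 0.048 and 0.011, Psmb7 0.12, 0.16 and 0.10, Psme1 0.42, 0.43 and 0.40, Psme3 0.32, 0.32 and 0.30, Sem1 0.17, 0.16 and 0.15, Ubqln1 0.24, 0.27 and 0.22, and the second Ecpas peak 0.43, 0.44 and 0.41. Psma2 became 0.0093 and the second Psme2 peak 0.0013 with quantile normalization. Centred on the median tested peak, Psma8 became 0.034, Psmd7 0.065 and the second Psmb1 peak 0.10. Centred on the median coding promoter peak, they became 0.014, 0.046 and 0.084. Under every other alternative the median change over the 50 peaks stayed between -0.60 and -0.43 and lay above that of all tested peaks. Without each library in turn, 18 to 46 of the 50 peaks and 14 to 33 of the partner list were lower, against 39.2% to 74.1% of all tested peaks. The change then ranged from -0.20 to 0.015 at Psmd9 and from -0.23 to 0.0084 at the second Ecpas peak. A limma fit with a replicate block called 44 of the 50 peaks lower (Psmd11 and Psmd13 among them, adjusted p = 0.0301 and 0.0347), against 71.4% of all tested peaks. The labels do not say whether same-numbered IPs are paired. Deviations of same-numbered libraries had r of -0.01, -0.09 and -0.06, which cannot decide it, since paired IPs can also correlate weakly. Depth limits the small peaks, where 6 reads carry a counting error of 40.8%.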

Other observations

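Peaks inside the bodies of the same genes, over 1 kb from their own starts, numbered 12 at 8 genes, of which 11 passed the threshold. H3K27ac was lower at 8 of these and higher at 0, with a median change of -0.59, against 66.4% lower and a median of -0.58 among the 13333 tested peaks with no start within 1 kb. The largest fall was at Psmb7, 51193 bp from its start, from 1.42, 1.78 and 2.58 RPKM uninduced to 0.824, 1.04 and 0.721 RPKM after IAA (log2 change -1.05 ± 0.24, SE, adjusted p = 0.00246 by limma), whereas the promoter peak of the gene changed by -0.43. This gene body peak was chosen after its value was seen. Psme4 held 3 such peaks, of which the first, 12658 bp from the nearest start, fell from 3.04, 2.75 and 2.84 RPKM to 1.74, 1.59 and 1.49 RPKM (log2 change -0.80 ± 0.17, SE, adjusted p = 0.00166). Relative to the median tested peak, 0 of the 11 passed the test. Of the 11, 3 carried the authors' mark of an OCT4 site within 1 kb, at Psma6, Psmc2 and Psme4.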
